A study of Mus musculus with 8 samples.

Results

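The 8 genes described here encode regulators and products of the epithelial-mesenchymal transition. They are the transcription factor genes Snai1, Snai2, Twist1, Zeb1 and Zeb2, the cadherin genes Cdh1 and Cdh2, and the vimentin gene Vim. They were chosen by name, as every non-control probe that the array files assign to these symbols. This gave 15 of 41174 probes, of which 9 were bright enough to be kept, and 8 of the 15490 genes that were tested.

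RNA came from the hind part of C57Bl6J/CBA mouse embryos that were either null for Cdx2, a caudal-type homeobox transcription factor gene of the hind part of the embryo, or wild type. Embryos were taken at 4/5 and at 7/8 somites, and the tissue was cut between the newest somite border and the foot of the allantois. Each genotype and stage had 1 pool of 20 embryos, so the series held 4 pools. At each stage the null and the wild type pool were compared on 4 Agilent 2-colour arrays, with the null pool in Cy3 on arrays 1 and 3 and in Cy5 on arrays 2 and 4, and arrays 3 and 4 were technical repeats of arrays 1 and 2. The null allele, and how null embryos were obtained, are not given in the sources used here. The 4 arrays of a stage carry the same 2 pools, so their spread is technical. The 2 stages, each with its own pools, are the replicates of the test. Their difference gave 1 degree of freedom per gene, against 19.1 from a variance estimated over all genes. The p-values below thus rest mostly on the size of the ratio and on that shared variance.

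During the epithelial-mesenchymal transition, cells loosen their junctions, leave an epithelial sheet and move as mesenchyme. In the primitive streak and tail bud this is how epiblast becomes mesoderm, and in the dorsal neural tube it is how neural crest cells leave. Snail family proteins and Zeb proteins are repressors that bind E-box sequences and switch off Cdh1, the gene of the epithelial cell adhesion molecule E-cadherin, while Cdh2 (N-cadherin) and Vim mark many mesenchymal and neural cells.

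The sequences that carry the measurements of the called genes other than Zeb1, whose probe is not printed, are shown first. The reason is that the 5 transcription factor genes belong to families whose members resemble each other. Each probe has 60 bases, of which the first 30 are printed in the order of the array design (build mm9, plus strand), and whether a probe lies in a coding or an untranslated part of its transcript was not analysed here. The Snai1 stretch lies at chr2:167368073-167368102, the Snai2 stretch at chr16:14709361-14709390, the Twist1 stretch at chr12:34644411-34644440 and the Vim stretch at chr2:13504232-13504261. The longest run of bases shared between the whole probes of Snai1 and Snai2 was 6 bases. It was also 6 bases between Twist1 and its relative Twist2, and between Zeb1 and the brightest probe of Zeb2.
Snai1 probe: gtttcacagcagtttaactgtctcagaagg
Snai2 probe: gtgaggtacggttaatagccacgcctatat
Twist1 probe: atggtaacaatcagaggaattttaacacct
Vim probe: gcagtttttcaggagcgcaagatagatttg

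RefSeq promoter windows (build GRCm38.p6) were matched by symbol for 4 of the 8 genes, namely Snai1, Twist1, Vim and Zeb2, the last with 4 start sites. The 250 bases before the start are printed for the 3 of them that were called, on the plus strand at chr2:167537945-167538194 (Snai1), chr12:33957421-33957670 (Twist1) and chr2:13574061-13574310 (Vim). Capitals mark 2 motifs searched on both strands. One is the E-box CAGGTG (reverse complement CACCTG) that Snail and Zeb proteins are known to bind, and the other is TTTATNG (reverse complement CNATAAA, with any base at N), the letters that caudal-type proteins such as CDX2 are known to prefer. Of 32851 windows of this length, 17.2% held the E-box and 9.81% the caudal motif. The Snai1 window held 1 E-box, whose first base is 126 bases before the start, and no caudal motif. The Twist1 window held 1 caudal motif, whose first base is 127 bases before the start, and no E-box. The Vim window and the 4 Zeb2 windows held neither motif, and the 2 motifs overlapped in none of these windows.
Snai1 window: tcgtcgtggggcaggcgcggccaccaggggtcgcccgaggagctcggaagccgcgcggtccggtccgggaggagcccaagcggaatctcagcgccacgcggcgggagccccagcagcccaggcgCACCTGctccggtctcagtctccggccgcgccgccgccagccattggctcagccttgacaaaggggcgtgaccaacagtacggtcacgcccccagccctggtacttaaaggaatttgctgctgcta
Twist1 window: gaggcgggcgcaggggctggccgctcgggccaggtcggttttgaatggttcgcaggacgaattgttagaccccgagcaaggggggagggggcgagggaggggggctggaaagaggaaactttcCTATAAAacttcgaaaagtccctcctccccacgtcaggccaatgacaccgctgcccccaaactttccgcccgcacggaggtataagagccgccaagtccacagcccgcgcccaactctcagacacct
Vim window: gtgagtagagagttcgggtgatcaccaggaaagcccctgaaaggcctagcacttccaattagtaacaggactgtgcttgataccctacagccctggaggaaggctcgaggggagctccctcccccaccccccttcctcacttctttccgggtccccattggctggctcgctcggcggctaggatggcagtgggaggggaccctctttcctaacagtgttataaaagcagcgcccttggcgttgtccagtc

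Over both stages 5 of the 8 genes passed the test. Snai2, Vim, Twist1 and Zeb1 rose in the null pools, by log2 ratios from 0.28 to 1.27, and Snai1 fell by 0.33 on the log2 scale, while Zeb2, Cdh1 and Cdh2 did not pass. A ratio here is the log2 of null over wild type, averaged over the 4 arrays of a stage and then over the 2 stages, for the brightest kept probe of a gene. A gene was called when limma's two-sided test of the 2 stage values against 0 gave a p of at most 0.05 after Benjamini-Hochberg adjustment over all 15490 genes. This rule called 10.8% of all genes tested, 6.47% higher and 4.36% lower in the null pools. The median ratio of the 8 genes was 0.23, against -0.01 over all genes tested. For 6 of the 8 genes the ratio had the same sign on all 8 arrays, as it did for 19.6% of all genes. Snai2 was also the 1 gene of the 8 whose ratio reached 2-fold at each stage with all 4 arrays on one side of 0, a rule that 0.387% of genes passed at 4/5 somites and 0.51% at 7/8 somites. That rule has no test, since a stage holds 1 pool per genotype. For none of the 8 genes did the ratios of the 2 stages stand apart without overlap, which they did for 18.5% of all genes.

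**Figure D1:**
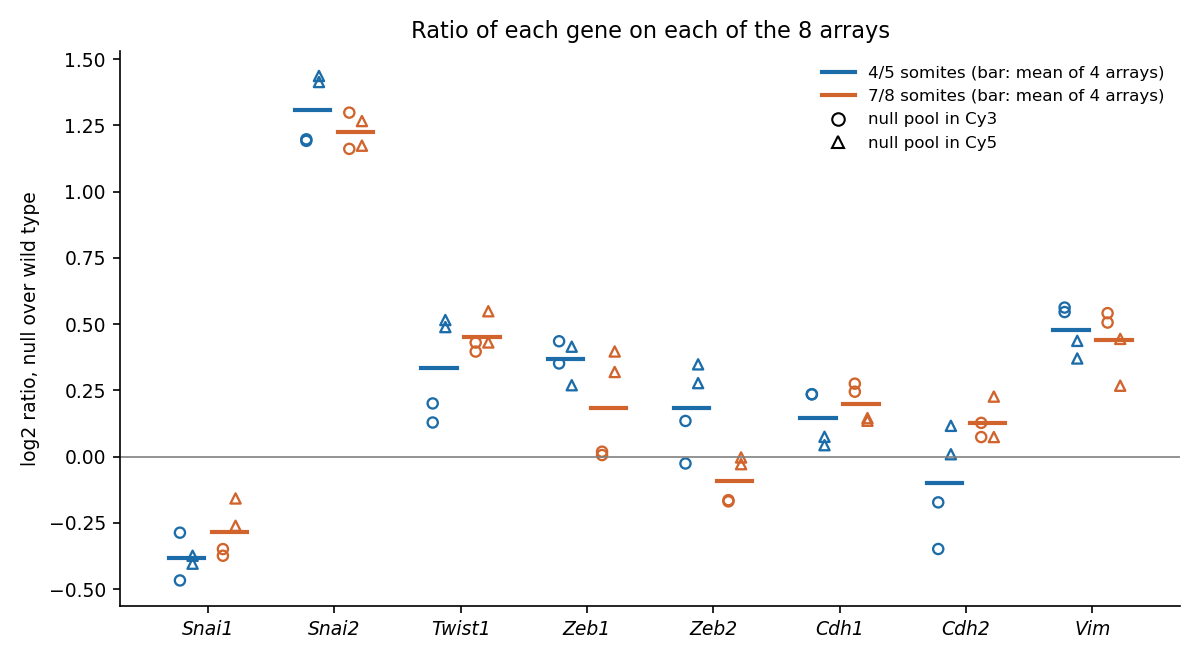
The plot of ratios by array shows the log2 ratio of null over wild type (vertical axis) of the 8 genes on each of the 8 arrays, blue for 4/5 and orange for 7/8 somites, circles for the null pool in Cy3, triangles for the null pool in Cy5, and bars for the mean of 4 arrays. Snai2 lies between 1.16 and 1.44 on all 8 arrays and Snai1 between -0.47 and -0.16.

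Snai2 encodes the repressor Slug of the Snail family, a marker of neural crest and of mesoderm that has left the epithelium. Its log2 ratio at 4/5 somites was 1.20 on array 1, 1.41 on array 2, 1.19 on array 3 and 1.44 on array 4. At 7/8 somites it was 1.16, 1.17, 1.30 and 1.27 on arrays 1 to 4. All 8 ratios lay above 2-fold, and the arrays of both stages overlapped. Snai2 thus rose 2.41-fold over both stages (log2 ratio 1.27, SE 0.08, limma adjusted p = 3.53e-09), with means of 1.31 ± 0.13 at 4/5 and 1.22 ± 0.07 at 7/8 somites (SD, n = 4 arrays each). Counted from the highest ratio, it ranked 11 among all genes. The log2 level, the brightness of the channel that carried a pool after normalization, was 10.33 ± 0.09 in wild type and 11.64 ± 0.13 in null at 4/5 somites, and 10.74 ± 0.08 in wild type and 11.96 ± 0.06 in null at 7/8 somites. The lowest null array of each stage (11.52 and 11.88) stood above the highest wild type array of both stages (10.85). The level was also higher at 7/8 than at 4/5 somites, by 0.41 in wild type and 0.33 in null, with no overlap of the arrays in either genotype. Its call held under all 22 other settings, with ratios from 1.21 to 1.36. In bulk tissue a higher signal from more cells of a type and from more RNA per cell cannot be told apart.

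Snai1 encodes Snail, the repressor that is needed for mesoderm cells to leave the primitive streak. Its ratio went the other way from that of Snai2, and was below 0 on all 8 arrays. The log2 ratio was -0.29, -0.37, -0.47 and -0.40 on arrays 1 to 4 of 4/5 somites, and -0.37, -0.26, -0.35 and -0.16 on arrays 1 to 4 of 7/8 somites. The lowest and the highest array belong to different stages, and the 2 stages overlapped. Snai1 fell by 0.33 on the log2 scale over both stages (SE 0.09, limma adjusted p = 0.0120), which is 1.26-fold lower in the null pools. The stage means were -0.38 ± 0.07 and -0.29 ± 0.10 (SD, n = 4 arrays each). Its level in wild type was 9.15 ± 0.14 at 4/5 and 9.13 ± 0.06 at 7/8 somites, and in null 8.77 ± 0.09 and 8.85 ± 0.11. The arrays of the 2 stages overlapped in both genotypes, in contrast to Snai2. The call was lost in 6 of 22 other settings, where limma's adjusted p went up to 0.147 when arrays were centred on their median. Leaving out array 2 of 4/5 somites gave a limma adjusted p of 0.0512, and leaving out array 2 of 7/8 somites one of 0.0620.

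Twist1 encodes a basic helix-loop-helix factor of head and limb mesenchyme, somites and lateral mesoderm that binds E-boxes as a dimer. The log2 ratio was 0.20, 0.49, 0.13 and 0.52 on arrays 1 to 4 of 4/5 somites. At 7/8 somites it was 0.40, 0.43, 0.43 and 0.55. At 4/5 somites the arrays fell apart by dye, with a mean of 0.16 where the null pool was in Cy3 and 0.50 where it was in Cy5, and at 7/8 somites the dye means were 0.41 and 0.49. Twist1 rose by a log2 ratio of 0.39 (SE 0.09, limma adjusted p = 0.00368), or 1.31-fold, with stage means of 0.33 ± 0.20 and 0.45 ± 0.07 (SD, n = 4 arrays each). The level was 8.52 ± 0.23 in wild type and 8.85 ± 0.07 in null at 4/5 somites, and 8.54 ± 0.11 and 8.99 ± 0.04 at 7/8 somites. At 7/8 somites the lowest null array (8.95) stood above the highest wild type array (8.65), whereas at 4/5 somites the arrays of the 2 genotypes overlapped. On the arrays with the null pool in Cy3 alone the ratio was 0.29 and the call was lost (adjusted p = 0.127), and it was also lost without background correction (adjusted p = 0.0551).

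Zeb1 and Zeb2 encode large zinc finger repressors of Cdh1, and Zeb2 is known for its role in neural crest and somites. The Zeb1 ratio was above 0 on all 8 arrays, at 0.44, 0.27, 0.35 and 0.41 on arrays 1 to 4 of 4/5 somites and at 0.02, 0.32, 0.01 and 0.40 on arrays 1 to 4 of 7/8 somites. At the later stage the arrays separated by dye, with a mean of 0.01 where the null pool was in Cy3 and 0.36 where it was in Cy5. Zeb1 rose by a log2 ratio of 0.28 (SE 0.09, limma adjusted p = 0.0444), close to the threshold, and its stage means were 0.37 ± 0.07 and 0.19 ± 0.20 (SD, n = 4 arrays each). The call was lost in 16 of 22 other settings, with adjusted p from 0.0534 to 0.333, among them those without any 1 of the 4 arrays of 4/5 somites (0.0795 to 0.104), without array 2 of 7/8 somites (0.180) and without array 4 of 7/8 somites (0.196), and its sign was kept in all 22. The level of Zeb1 was higher at 7/8 than at 4/5 somites in both genotypes, by 0.57 in wild type (9.64 ± 0.13 to 10.21 ± 0.09) and by 0.39 in null (10.01 ± 0.09 to 10.40 ± 0.15), and the arrays of the 2 stages did not overlap.

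Zeb2 was measured by 2 kept probes, both on chromosome 2 (build mm9, minus strand), the brighter at 44842774 to 44842833 and the dimmer at 44844068 to 44844127. The brighter one had log2 ratios of 0.13, 0.35, -0.03 and 0.28 on arrays 1 to 4 of 4/5 somites and of -0.16, -0.0029, -0.17 and -0.03 on arrays 1 to 4 of 7/8 somites. It was above 0 on 3 of the 4 arrays of the earlier stage and below 0 on all 4 of the later one, and the arrays of the 2 stages overlapped. Its mean over both stages was 0.05 (SE 0.09, 95% interval -0.14 to 0.23, limma adjusted p = 0.854). The dimmer probe gave -0.11 ± 0.10 and -0.02 ± 0.21 at the 2 stages (SD, n = 4 arrays each) and -0.06 over both (adjusted p = 0.773 in the same fit on every kept probe, which called 8.42% of probes). The level of the brighter probe was 10.88 ± 0.19 in wild type and 11.06 ± 0.05 in null at 4/5 somites, and 10.63 ± 0.08 and 10.54 ± 0.13 at 7/8 somites. In null it was lower at the later stage by 0.52 with no overlap of the arrays, and in wild type by 0.25 with overlap.

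Cdh1 encodes E-cadherin, the adhesion molecule of epithelial cells and the best known target of the repressors above. Its probe (build mm9, chromosome 8, 109193812 to 109193871) is spotted 10 times on each array, and the SD between the spots of an array ran from 0.04 to 0.13. The log2 ratio was 0.24, 0.08, 0.24 and 0.04 on arrays 1 to 4 of 4/5 somites. At 7/8 somites it was 0.25, 0.15, 0.28 and 0.14. Every ratio was above 0, and the arrays with the null pool in Cy3 gave higher values (means of 0.24 and 0.26) than those with it in Cy5 (0.06 and 0.14). The mean over both stages was 0.17 (SE 0.08, 95% interval -0.0024 to 0.35), which did not pass (limma adjusted p = 0.234). It passed in 1 of 22 other settings, the one that takes only technical spread. The level differed more between stages than between genotypes. In wild type it was 10.58 ± 0.04 at 4/5 and 10.08 ± 0.05 at 7/8 somites, a difference of -0.51, and in null 10.73 ± 0.07 and 10.28 ± 0.04, a difference of -0.45. The arrays of the 2 stages did not overlap in either genotype.

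Cdh2 encodes N-cadherin, the adhesion molecule of neural plate and somites. The log2 ratio was -0.35, 0.0093, -0.17 and 0.12 on arrays 1 to 4 of 4/5 somites, and 0.07, 0.23, 0.13 and 0.07 on arrays 1 to 4 of 7/8 somites. The mean over both stages was 0.01 (SE 0.09, 95% interval -0.17 to 0.20, limma adjusted p = 0.965), from stage means of -0.10 ± 0.20 and 0.13 ± 0.07 (SD, n = 4 arrays each). The arrays of 4/5 somites lay on both sides of 0, the 2 lower ones being those with the null pool in Cy3. The level stayed between 9.36 and 9.56 on average in the 4 pools, with overlap between stages in both genotypes.

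Vim encodes vimentin, the intermediate filament protein of mesenchymal cells. The log2 ratio was 0.55, 0.37, 0.56 and 0.44 on arrays 1 to 4 of 4/5 somites, and 0.54, 0.27, 0.51 and 0.44 on arrays 1 to 4 of 7/8 somites. All 8 arrays were above 0 and the stages overlapped. Vim rose by a log2 ratio of 0.46 (SE 0.08, limma adjusted p = 0.000781), or 1.37-fold, with stage means of 0.48 ± 0.09 and 0.44 ± 0.12 (SD, n = 4 arrays each). Its level was 12.11 ± 0.09 in wild type and 12.59 ± 0.16 in null at 4/5 somites, and 12.02 ± 0.26 and 12.46 ± 0.26 at 7/8 somites. At 4/5 somites the lowest null array (12.47) stood above the highest wild type array (12.25), while at 7/8 somites the 2 genotypes overlapped in level although each array's own ratio was above 0. The call held under all 22 other settings, with ratios from 0.38 to 0.54.

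Among the 8 genes, the change of level between stages was as follows. In wild type Zeb1 and Snai2 were higher and Cdh1 was lower at 7/8 than at 4/5 somites with no overlap of the arrays, and the same 3 genes differed the same way in null. Twist1 (0.14) and the brighter Zeb2 probe (-0.52) joined them in null alone, and the difference between genotypes was not tested. The dimmer kept Zeb2 probe differed by -0.16 in null and by -0.25 in wild type, with overlap of the arrays in both. None of the 8 genes reached 2-fold between stages, which 0.245% of all genes did in wild type and 0.291% in null, both without overlap. The share of all genes whose levels did not overlap between stages at any size was not computed. The lack of overlap above is thus a description of technical arrays. The 2 stages were hybridised on different arrays, and array and stage cannot be told apart in these level differences.

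**Figure D2:**
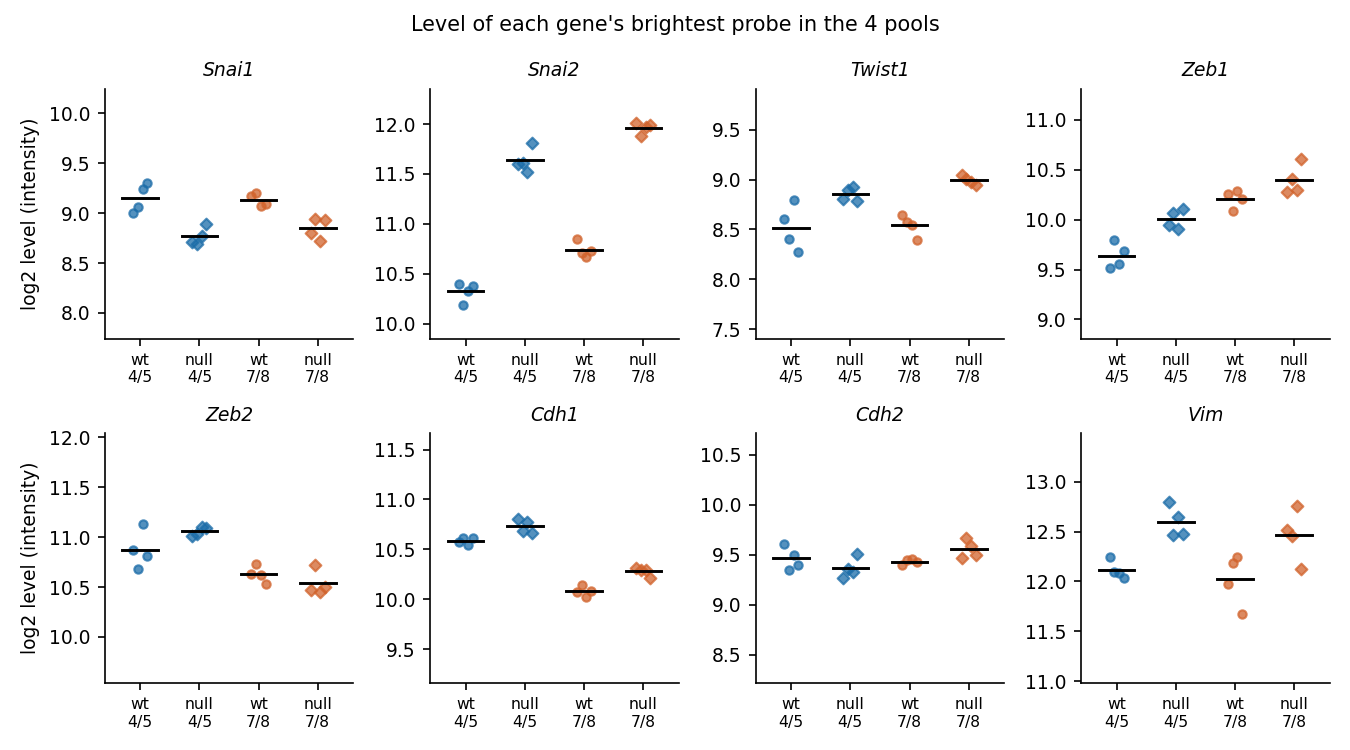
The plot of levels in the 4 pools gives the log2 level (vertical axis, brightness of the pool's channel after loess and Aquantile normalization) of each gene's brightest probe, circles for wild type, diamonds for null, blue for 4/5 and orange for 7/8 somites, with a line at the mean of 4 arrays. All panels span the same range, and levels of different genes are not comparable. Snai2 separates by genotype, from 10.33 to 11.64 at 4/5 somites, and Cdh1 by stage, from 10.58 to 10.08 in wild type.

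For each called gene, the genes with the most similar ratios over the 8 arrays were found by the root mean square difference of log2 ratios. For Snai2 these were Slc7a8 (0.15), Colec11 (0.16) and Cdc42ep1 (0.17), although a second Cdc42ep1 probe rose less (0.48 against 1.28). For Vim they were Tcf21 (0.05), Adssl1 (0.06) and Vegfc (0.06), and for Twist1 3830417A13Rik (0.06), Rasl11a (0.06) and Ccbe1 (0.07). For Snai1 they were Nfrkb (0.04), Igfbpl1 (0.06) and NAP059398-1 (0.06), and for Zeb1 Ltbr (0.05), Slain2 (0.06) and Yeats4 (0.07), although of the other Slain2 probes one was at -0.11 and one at 0.26, against 0.25. These are descriptions of likeness over the same 8 arrays, which share 4 pools.

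Around the 8 genes, of 13 other measured transcription factor genes of the transition 7 rose, 1 fell and 5 did not pass, with a median of 0.34. Over all genes tested 6.47% were called higher and 4.36% lower, the shares to set beside each list below. The lists were chosen with earlier results of these data known, so their counts are descriptions. Mesp1, a factor of early mesoderm, rose by 0.89 (SE 0.09), the paired-type homeobox gene Prrx2 by 0.75 (SE 0.08) and Twist2, the relative of Twist1, by 0.60 (SE 0.09), all with limma adjusted p at or below 8.00e-05. Foxc2, a forkhead factor of paraxial mesoderm, rose by 0.49 (SE 0.12, adjusted p = 0.0109), from 0.89 ± 0.10 and 0.09 ± 0.11 at the 2 stages (SD, n = 4 arrays each), and missed the threshold in 10 of 22 other settings. The 1 that fell, named here after its value was seen, was T, the T-box factor of streak and notochord, at -0.34 (SE 0.10, adjusted p = 0.0382), with -0.61 ± 0.07 and -0.07 ± 0.09 (SD, n = 4 arrays each) at the 2 stages, and it missed the threshold in 18 of 22 other settings. Of 10 measured regulators that hold the epithelial state 2 rose and 0 fell. Elf5, an epithelial Ets factor, rose by 0.52 (SE 0.08, adjusted p = 0.000243) and Grhl2, a grainyhead factor that activates Cdh1, by 0.34 (SE 0.08, adjusted p = 0.0103), while Grhl1 (0.22) and Ovol1 (0.21) did not pass.

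For other cadherins and their partners, the counts stand beside 10.8% of all genes tested that were called in either direction, and no difference from that share was tested. Of 9 measured classical cadherin genes 1 rose, Cdh10 at 0.26 (SE 0.08, limma adjusted p = 0.0494), which missed the threshold in 17 of 21 other settings. Cdh15 (0.15), Cdh5 (-0.14) and Cdh11 (-0.14) did not pass, with 0.04 on a second Cdh5 probe and -0.0059 and 0.04 on other Cdh11 probes, and the median of the list was 0.03. Of 10 measured catenins and linked proteins 2 rose, namely Ctnnd2, a catenin of neural cells, by 0.39 (SE 0.09, adjusted p = 0.00384) and Vcl, which encodes the actin linker vinculin, by 0.31 (SE 0.09, adjusted p = 0.0230), although Vcl missed the threshold in 12 of 22 other settings, while Ctnna2 (0.19) and Ctnnd1 (0.18) did not pass.

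Epithelial genes moved both ways. Of 21 measured junction and keratin genes 7 rose and 4 fell, with a median of 0.07. Krt19, a simple-epithelium keratin, fell by 1.37 on the log2 scale (SE 0.09, limma adjusted p = 1.58e-09), and the desmosome gene Pkp2 fell by 0.65 (SE 0.09, adjusted p = 6.01e-05). The other two that fell, named after their values were seen, were F11r at -0.47 (SE 0.11) and Cldn4 at -0.33 (SE 0.10), with calls lost in 8 and 12 of 22 other settings. The tight junction gene Cldn3 rose by 0.61 (SE 0.09, adjusted p = 9.41e-05) and the keratin gene Krt18 by 0.52 (SE 0.09, adjusted p = 0.000356).

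Of 23 measured mesenchymal matrix and contractile genes 9 rose and 2 fell, with a median of 0.19. The collagen gene Col1a1 rose by 0.61 (SE 0.08, limma adjusted p = 3.33e-05, with 0.16 on its second probe), the PDGF receptor gene Pdgfrb by 0.60 (SE 0.08) and the matrix protein gene Sparc by 0.56 (SE 0.09). Thy1, which encodes a surface glycoprotein, fell by 0.83 (SE 0.09, adjusted p = 1.83e-06), and Col3a1, named after its value was seen, by 0.40 (SE 0.10), which missed the threshold in 8 of 22 other settings. Of 7 other measured intermediate filament genes 3 rose and 0 fell. Like Vim they encode filament proteins, and the neurofilament gene Nefm rose by 0.53 (SE 0.08, adjusted p = 0.000187), the neural progenitor gene Nes by 0.35 (SE 0.08, adjusted p = 0.00757) and Synm by 0.27 (SE 0.08, adjusted p = 0.0433, with 0.04 on its second probe and past the threshold in only 3 of 22 other settings), while Des (0.18) did not pass. Of 16 signals and effectors of gastrulation movements 1 rose and 2 fell. Tgfb2 fell by 0.51 (SE 0.09, adjusted p = 0.000311) and Bmp4 by 0.49 (SE 0.09, adjusted p = 0.000504), both ligands that can induce the transition. Nodal, the ligand of mesendoderm, rose by 0.36 (SE 0.11, adjusted p = 0.0385) and missed the threshold in 17 of 22 other settings, and Wnt3 (-0.20) did not pass.

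**Figure D3:**
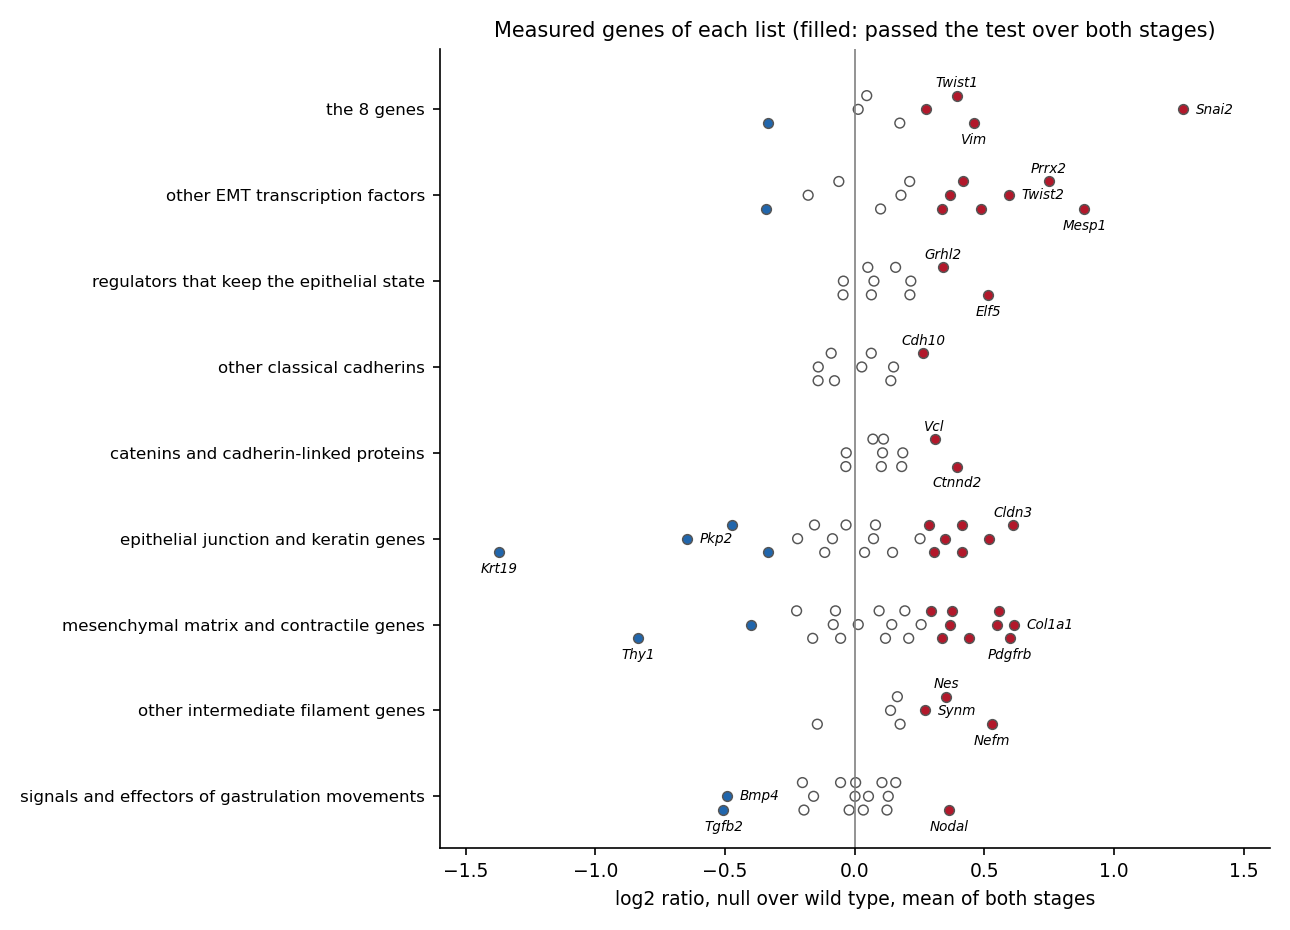
The plot of the pathway lists gives the log2 ratio over both stages (horizontal axis) of each measured gene, 1 row per list with the 8 genes on top, filled where the gene passed limma's test (red higher, blue lower in the null pools), with up to 3 called genes named per row and points spread vertically for legibility. Snai2 at 1.27 is the highest point and Krt19 at -1.37 the lowest.

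Markers are described here for 3 tissues that also express Snai2, Twist1 or Vim. The summed levels of allantois and somite markers were higher in the null pools, and that of neural crest markers was lower. Endothelium markers had lower sums in null, at 3103 to 3361 against 3833 to 4076 at 4/5 and 3051 to 3641 against 5363 to 6624 at 7/8 somites. Lateral plate and intermediate mesoderm markers were lower at 4/5 somites (1300 to 1416 against 1598 to 1762) and overlapped between genotypes at 7/8 somites. The part of these tissues in the results was not tested. Such a sum adds linear levels, so its brightest probes weigh most. Of 8 measured neural crest markers 2 rose, 2 fell and 4 did not pass, with a median ratio of 0.04 against -0.01 over all genes tested. Crabp1 was at -0.63, Ngfr at -0.42 (-0.10 on its second probe) and Sox10 at 0.37 (limma adjusted p from 2.57e-05 to 0.00935). The other that rose, named after its value was seen, was Erbb3 at 0.34 (limma adjusted p = 0.0109). The summed linear level of the list was lower in null, at 4733 to 4965 against 5423 to 6038 in wild type at 4/5 somites and 4405 to 4741 against 5673 to 6195 at 7/8 somites. The defining neural crest genes Foxd3 and Pax3 were not kept. Of 6 measured allantois markers 3 rose, Wnt2 (1.12), Ahnak (0.80) and Postn (0.44), and their sum was 4379 to 4694 in null against 2987 to 3199 in wild type at 4/5 somites and 5189.7 to 5533 against 3146 to 3391 at 7/8 somites. The defining allantois gene Tbx4 was not kept. Postn, also on the mesenchymal list, was at 0.10 ± 0.04 at 4/5 and 0.78 ± 0.06 at 7/8 somites (SD, n = 4 arrays each). Other Ahnak probes gave -0.03 to 0.91. Of 4 measured somite markers 3 rose, Dmrt2 (1.05), Meox1 (0.92) and Tcf15 (0.59). Tcf15 was at 1.03 ± 0.06 at 4/5 and at 0.14 ± 0.30 at 7/8 somites (SD, n = 4 arrays each). The sums of the list were 2958 to 3154 in null against 1414 to 1458 in wild type at 4/5 somites. At 7/8 somites they were 1949.7 to 2275 against 1473 to 1754. The listed somite genes Meox2, Pax1 and Pax9 were not kept. In the sums of the neural crest, allantois and somite lists the arrays of the 2 genotypes did not overlap at either stage. The same held for most of the other marker lists, among them the neural tube list, of which no gene passed. It therefore does not mark out these 3 tissues.

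Checks of the series bear on all of these values. Cdx2 had a ratio of -1.39 (SE 0.09, limma adjusted p = 2.89e-09), with -1.23 ± 0.12 and -1.55 ± 0.05 at the 2 stages (SD, n = 4 arrays each), but the sources used here do not say whether its probe lies in the deleted part. All 8 posterior growth zone markers were measured, and 5 of 7 markers of anterior brain and heart were not kept. The 2 that were kept, Myl7 and Myh6, did not pass the test but gave signal. Myl7 was well above background in both genotypes on all 4 arrays of each stage, and Myh6 on 3 of 4. Across genes, log2 ratios of arrays with the same stage and dye order correlated at 0.87 to 0.92, and those of opposite dye order within a stage at 0.49 to 0.57. Between the 2 stages, which are the replicates of the test, the correlation ran from 0.51 to 0.63 for arrays of like dye order and from 0.28 to 0.37 where the dyes were opposite. On an array 47.0% to 59.5% of spots were well above background in a channel. Each of the 8 genes was well above background in both genotypes on all 8 arrays.

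**Figure D4:**
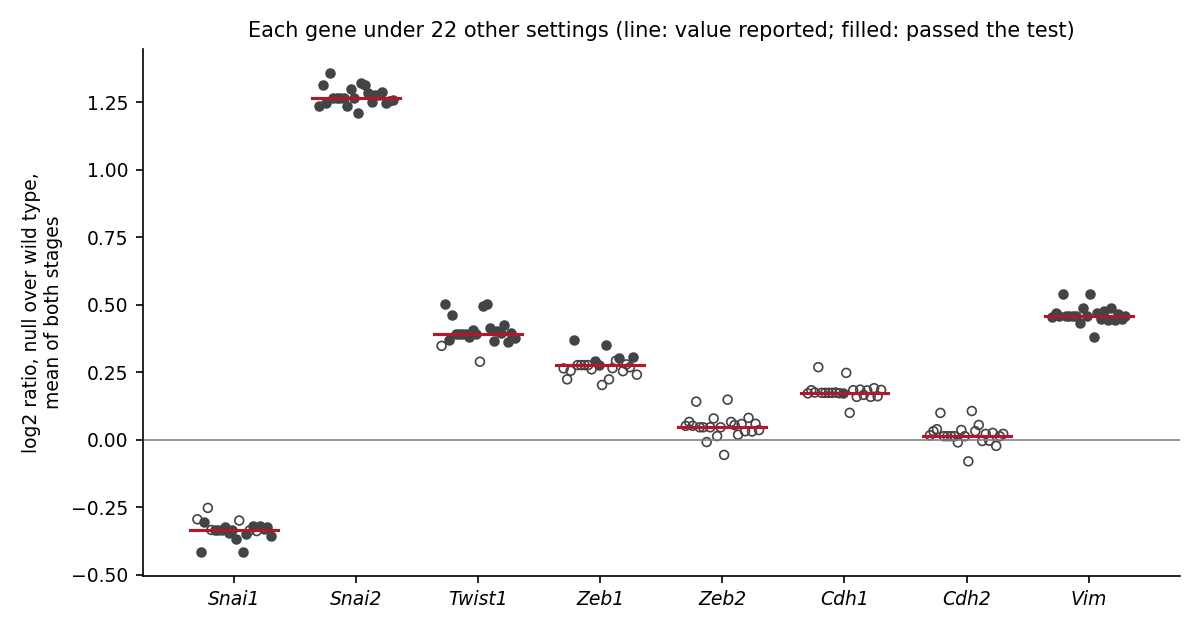
The plot of other settings gives the log2 ratio over both stages (vertical axis) of each gene under 22 other ways of processing or choosing arrays, filled where the gene passed limma's test at an adjusted p of at most 0.05, with a red line at the value reported. Snai2 and Vim are filled in all 22, Twist1 in 20, Snai1 in 16 and Zeb1 in 6.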

How the data were processed

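Messenger RNA was measured on 8 Agilent 2-colour arrays of 4 pools. The deposited scanner files hold spot and background intensity values with no normalization, and, per the file headers, a log10 ratio of the Cy5 to the Cy3 signal. The deposited series matrix equals that log10 ratio turned to null over wild type at all 45018 spots (tolerance 1e-05). Agilent Feature Extraction is given as version 9.5.3 by the submitters' processing notes and as 10.5.1.1 by the file header.

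Mean signals were corrected with normexp (offset 50) and loess-normalized within arrays in limma 3.58.1 (R 4.3.3), with control spots at weight 0. Spots with uneven local background received the array's median background. Outlier spots (0.341%) were left out and none was saturated. Ratios were turned to null over wild type by the dyes in the labels. A probe was kept when well above background in 1 genotype's channel on 3 or more arrays of either stage, and the brightest kept probe stood for a gene. Probes were named through RefSeq accessions (25097 of 41174 matched), otherwise by the file's name. Levels are channel values after loess and Aquantile normalization.

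The test was lmFit and eBayes on 2 stage means, with 1 residual and 19.1 prior degrees of freedom. It was run on simulated data in which the planted changes were at least 2-fold, so changes as small as those of Snai1, Twist1, Zeb1 and Vim were not covered. Alternatives changed background, normalization, filter, probe choice, arrays and the source of ratios. Members and gene lists were chosen with earlier results of these data known. Named genes were all members, Cdx2, up to 4 genes with the largest ratios of each pathway list, up to 3 of a marker list set beside a member, and the 3 nearest profiles of each called member. T, F11r, Cldn4, Col3a1 and Erbb3 are named outside this rule. Figures were drawn with matplotlib 3.10.9.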

Additional observations from a re-analysis of the deposited data

How the results depend on the processing

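Of the 8 genes, Snai2 and Vim kept their calls under all 22 alternatives, and none of the 5 called members or the called genes named from the pathway lists changed sign under any of them. Genes called over both stages numbered 1678, against 530 without background correction, 976 with uneven backgrounds kept, 743 with no filter on dim probes and 1117 with the null pool in Cy3 alone. The called members numbered 5, against 2 without background correction and 3 each with no filter and with the null pool in Cy3 alone. Median centring of arrays called 1129 genes, 79.5% of them higher in null against 59.7% as reported, and moved the median of all genes from -0.01 to 0.04. With 4 dye swap pairs and the array set as a replicate block, a fit that holds only technical spread, 9739 genes and 6 members passed, Cdh1 among them; the numbers mark technical repeats and pair no embryos. At least 2-fold changes numbered 60 at 4/5 and 79 at 7/8 somites, against 30 at 4/5 somites without background correction, 28 there with uneven backgrounds kept, 256 and 282 with the scanner's processed signals, and 256 and 281 with the authors' log ratios. Leaving out 1 array gave 801 to 1586 genes over both stages, 3 to 5 members, 52 to 65 genes at 4/5 and 76 to 81 at 7/8 somites. The low counts came without array 2 of 4/5 somites (919 genes, 3 members), array 2 of 7/8 somites (801 genes, 3 members) and array 4 of 7/8 somites (951 genes). Over the 22 alternatives mesenchymal genes that rose numbered 3 to 15 against 9, other factors of the transition 3 to 10 against 7, and junction and keratin genes 3 to 11 up against 7 and 2 to 8 down against 4. The cause of these differences was not tested. The 4 pools limit the precision, and probes not well above background have no usable ratio.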

Other observations

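Of the 15 probes assigned to the 8 genes, 6 were too dim to be kept, 3 of Zeb2, 2 of Cdh2 and 1 of Vim. Their ratios are not given.

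Some markers of other cell types of the posterior embryo were also called, where 6.47% of all genes tested were called higher and 4.36% lower. Numbers of cells were not measured. Of 12 measured visceral endoderm markers 6 rose and 0 fell, of 8 surface ectoderm markers 3 rose and 0 fell, and of 7 endothelium markers 0 rose and 4 fell. Surface ectoderm and visceral endoderm express Cdh1, and their summed levels were higher in null at both stages. For surface ectoderm they were 6086 to 7232 against 4865 to 5251 at 4/5 somites. The sum of gut endoderm markers was also higher in null at both stages, and that of notochord and node markers was lower at both. The part of these tissues in the Cdh1 ratio was not tested. Of 7 gut endoderm markers 3 rose and 1 fell, of 7 presomitic mesoderm markers 1 rose and 2 fell, of 5 notochord and node markers 0 rose and 2 fell, of 8 posterior growth zone markers 0 rose and 2 fell, of 5 lateral plate and intermediate mesoderm markers 0 rose and 1 fell, and of 4 primitive blood markers 0 rose and 1 fell. None of 4 neural tube markers passed.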
